A study of Homo sapiens with 24 samples.

Results

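DNA repair genes were taken from the count tables as the gene groups whose names carry the symbols of the Fanconi anaemia genes FANCA to FANCM, BRCA1, BRCA2, PALB2, and names that begin with RAD5, XRCC, ERCC or MSH, and MLH3, LIG1, LIG3, LIG4, PARP1, PARP2, ATM, ATR, NBN, MRE11A, BLM and WRN. The rule used names and no measured value. It found 56 of the 13236 gene groups, and 62 of the 4769 detained introns, which lie in 28 of the 56 genes. All samples were HEK293T, a line derived from human embryonic kidney and established in culture. Cultures were given 10 µM OSMI-2, which blocks OGT, the enzyme that puts O-GlcNAc sugar on proteins, or 5 µM TMG, which blocks OGA (MGEA5), the enzyme that takes it off, or DMSO as the solvent control, for 2 h or 6 h. Polyadenylated RNA was sequenced from libraries made with a stranded kit. The OSMI-2 experiment and the TMG experiment each had DMSO libraries of their own at each time. Every group had 3 libraries except OSMI-2 6 h, for which 2 were analysed here, so 23 libraries were used. The labels do not say that libraries of a group came from separate cultures, so the p-values measure the spread between these libraries. RNA was extracted from whole cultures, so fewer cells with a transcript and less of it per cell cannot be told apart.

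Repair proteins fall into pathways by the lesion they act on. ATM and ATR are kinases that signal broken and stalled DNA. MRE11A, RAD50 and NBN form the complex that first holds a broken end. BRCA1, BRCA2 and PALB2 prepare the strand exchange of homologous recombination, and the Fanconi anaemia proteins unhook crosslinks between the strands. XRCC5 and XRCC6 form the Ku dimer of end joining, the MSH proteins find mismatches, the ERCC proteins act in nucleotide excision repair, and PARP1, XRCC1, LIG1 and LIG3 act on nicks and damaged bases. A detained intron is an intron kept in a spliced, polyadenylated transcript that stays in the nucleus. Such a transcript makes no protein until the intron is removed.

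Library totals ran from 39.5 M to 100.2 M counts. Of the kidney and neuronal genes that mark HEK293 cells, PAX2 was at 1.21 to 4.20 CPM (counts scaled to a library total of 1 M), WT1 at 2.43 to 4.63 CPM and INA at 7.71 to 35.5 CPM, while LHX1 was at 0.058 to 0.695 CPM, SALL1 at 0.110 to 0.813 CPM and NEFM at 0.300 to 2.20 CPM, and NEFH was not in the tables. Of the markers of other cells, GFAP was at 0 to 0.269 CPM and COL3A1 at 0.150 to 0.793 CPM, and PTPRC, ALB, HBB, MYH7 and KRT5 were not in the tables. DMSO library a at 6 h in the OSMI-2 experiment stood apart. The slope of log2 CPM on transcript GC content was 0.42 per 10 percentage points in that library, against 0.83 to 1.15 in the other 10 libraries of the OSMI-2 experiment and −0.54 to −0.24 in the TMG experiment. The main counts and most named values at 6 h in the OSMI-2 experiment are therefore given with that library and without it. The authors' deposited tests include it.

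Per length, the most abundant members in the 12 DMSO libraries were XRCC6, with a median of 454 CPM per kilobase of exon bins, PARP1 with 434 and XRCC5 with 214. XRCC1 followed with 38.6, MSH6 with 38.0 and LIG1 with 36.3 CPM per kilobase. Over the libraries XRCC1 ranged from 25.7 to 59.4, MSH6 from 10.9 to 54.7 and LIG1 from 24.1 to 53.3. The medians and ranges given here pool 2 experiments whose levels differed, so they give no order of these 3 genes. In DMSO at 2 h, MSH6 was at 67.4 to 105.9 CPM in the OSMI-2 experiment and 217 to 227 CPM in the TMG experiment. XRCC1 was at 76.0 to 87.1 CPM and 39.5 to 43.4 CPM. BRCA1 had a median of 11.96, ATR of 5.78, PALB2 of 5.08, ATM of 3.41 and BRCA2 of 3.25 CPM per kilobase. The lowest was MSH4, a meiotic MutS protein, at 0.012. Some levels rest on bins that hold more or less than the transcript. The MSH4 group has 77742 bases in 3 bins and the ERCC1 group 29375 bases, against longest transcripts of 3266 and 3828 bases. The LIG4 group has 207 bases in 1 bin and the ERCC6L group 165 bases in 1 bin, against 4180 and 4344 bases. The BRCA2 group has 2807 bases against 11986. RAD51L3-RFFL and ERCC6-PGBD3 join neighbouring genes, and XRCC6BP1, RAD54L2 and ERCC6L entered by name alone.

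Detained introns were more common among repair genes than over the tables: 28 of the 56 had at least 1, against 23.8% of all gene groups. The 56 genes also held more bins per gene, with 1112 of the 164219 bins in 56 of the 13236 gene groups. The shares were not adjusted for this. The 62 introns were 289 to 28354 bases wide, with a median of 2098 bases against 1798 bases for all detained introns. The Fanconi anaemia genes held 22 of them, the base excision and single-strand break genes 10, the homologous recombination genes 9, the ERCC genes 6, and the MRE11A, RAD50 and NBN complex and the helicases BLM and WRN 5 each. ATM and ATR held 3 and XRCC5 and MSH3 held 1 each. RAD54L2 is counted with the homologous recombination genes, although it entered by name alone. The widest was in FANCL, a ubiquitin ligase of the Fanconi core complex (bin E010, chr2:58393010-58421363, minus strand, hg19). The narrowest was in RAD52 (bin E002, chr12:1023288-1023576, minus strand, hg19). The authors' bin names are used for the introns throughout, and all positions are hg19.

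After 6 h with OSMI-2, the detained introns of repair genes were far lower than with DMSO. In the 3 DMSO libraries, counts in the member introns were 3.51%, 3.42% and 2.37% of the counts of their genes, and in the 2 OSMI-2 libraries 0.617% and 0.832%. All DMSO libraries lay above both OSMI-2 libraries. By edgeR's quasi-likelihood test, with Benjamini-Hochberg adjustment over all introns tested, 60 of 61 member introns were lower and none was higher. Their median log2 fold change was −1.90. Over all detained introns the test called 86.9%, 86.3% lower and 0.599% higher, and the median was −1.55, so the members' share of calls lies near that of all introns. With DMSO library a left out, 55 of 60 member introns were called, all lower, with 84.2% called over all. The 5 that did not pass then were ATM E023 (−0.73), ATR E014 (−0.87), FANCC E003 (−0.67), RAD51AP1 E011 (−0.29) and ERCC6L2 E020 (0.20), listed after their values were seen. The scaling factors came mostly from exonic counts. With factors from introns alone, which centre the introns on no change, 8 member introns were lower and 1 was higher.

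**Figure D1:**
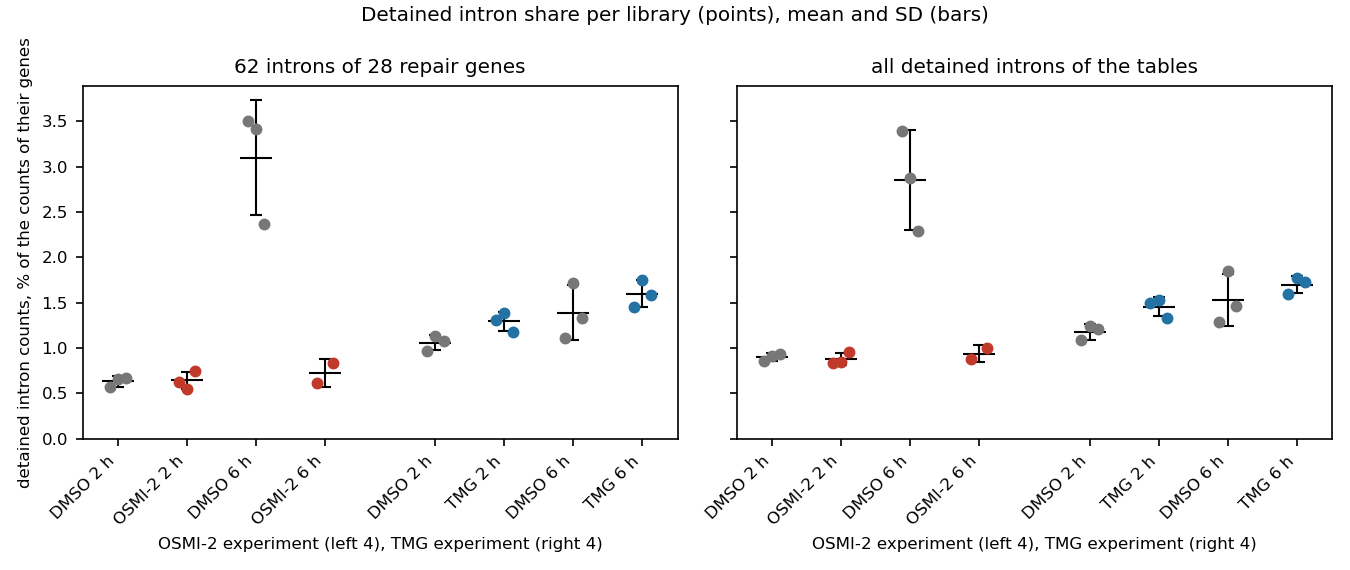
Counts in detained introns as a percent of the counts of the genes that hold them, for the repair genes (left) and for all such genes (right), 1 point per library with the group mean and SD. In the repair genes the DMSO 6 h libraries of the OSMI-2 experiment sit between 2.37% and 3.51% and the other libraries of that experiment between 0.552% and 0.832%.

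The OSMI-2 6 h shares lay near those at 2 h, and the DMSO shares at 6 h lay above every other library of the experiment. At 2 h the members' intron share was 0.566% to 0.664% with DMSO and 0.552% to 0.747% with OSMI-2. From 2 h to 6 h in DMSO, 56 of 59 member introns rose and none fell, and the median log2 change was 1.95. Over all detained introns 90.3% were called, 88.5% higher and 1.79% lower, and the median was 1.70. Without library a, 56 of 59 rose as well (89.5% called over all). In the TMG experiment the members' share with DMSO was 0.966% to 1.14% at 2 h and 1.11% to 1.71% at 6 h. The 6 h OSMI-2 fall and the DMSO rise over time use the same 3 DMSO libraries and are not separate observations. With the scaling computed over introns alone, 10 introns rose and 3 fell between the DMSO times. Time and any other difference between the 2 h and 6 h cultures cannot be told apart.

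Among introns with a mean of 10 counts or more, the deepest falls were in FANCM, RAD54L and BRCA1. RAD54L, a motor protein of strand exchange, has 3 detained introns. Its intron E016 (chr1:46738475-46739026, plus strand) had 151, 193 and 136 counts in the DMSO libraries and 15 and 30 with OSMI-2, although the OSMI-2 libraries were the deeper ones. Its log2 fold change was −3.01 with a standard error (SE) of 0.35 (adjusted p = 8.5e-15, edgeR). The other RAD54L introns, E006 and E019, changed by −2.83 and −2.38. The 3 introns were at −3.01, −2.81 and −2.38 without DMSO library a. FANCM, a translocase that recruits the core complex to crosslinks, had the largest change among introns with a mean of 10 counts or more, at −3.32 (SE 0.55) for intron E021 (chr14:45665751-45667846, plus strand), on 57, 29 and 27 counts with DMSO and 6 and 2 with OSMI-2, and was at −2.87 without library a. MSH3, a sensor of larger mismatch loops, had a change of −3.91 in its single intron E021 but only 21, 10 and 14 counts with DMSO and 1 in each OSMI-2 library, and it was not tested without library a.

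BRCA1 has 2 detained introns, which flank a short exon near the 3′ end of the gene: E004 (chr17:41201212-41203079, minus strand) and E006 (chr17:41203135-41209068, minus strand). Together they held 5.80%, 10.1% and 6.56% of the BRCA1 counts with DMSO at 6 h, and 1.39% and 0.91% with OSMI-2. At 2 h the share was 1.66% to 1.96% with DMSO. E004 changed by −2.89 (SE 0.49) and E006 by −2.58 (SE 0.49) on the log2 scale, both past the threshold, and by −2.76 and −2.28 without library a. The BRCA1 gene count itself changed by −0.09 (SE 0.34, adjusted p = 0.91, edgeR), and by 0.37 (adjusted p = 0.043) without DMSO library a.

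FANCL carried the largest mean share of intron counts of the Fanconi genes with DMSO at 6 h, 41.4% against 25.4% in FANCM, and with OSMI-2 the shares were 7.65% and 7.84%. Its wide intron E010 alone held 22.1% to 40.7% of the gene's counts with DMSO at 6 h, and 4.81% and 5.11% with OSMI-2 (log2 fold change −2.37, SE 0.30, and −2.19 without library a). In LIG1, the ligase of replication and long-patch base excision, intron E018 (chr19:48641511-48643227, minus strand) had the most counts of all member introns: 1225, 1076 and 951 with DMSO and 186 and 446 with OSMI-2. It changed by −2.01 (SE 0.28), and by −1.87 without library a. RAD52, a mediator of strand annealing, had the highest intron share of the members with OSMI-2 at 6 h: 33.5%, 50% and 40.5% with DMSO and 22.3% and 20.5% with OSMI-2.

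The counts by pathway stand beside 86.3% of all detained introns called lower, with a median of −1.55, and 84.2% called without DMSO library a. By pathway, all 22 Fanconi introns were lower (median −2.06 on the log2 scale). The 9 introns of the recombination genes were all lower, with a median of −2.38, as were the 5 of MRE11A, RAD50 and NBN (−2.14), the 5 of BLM and WRN (−1.81), the 10 of the base excision and single-strand break genes (−1.55) and the 3 of ATM and ATR (−1.56). The recombination group here includes the intron of RAD54L2 (−1.44), a gene that entered by name alone. Of the 5 ERCC introns tested, 4 were lower. With DMSO library a left out, 21 of the 22 Fanconi introns were lower (median −1.86), 8 of the 9 recombination introns (−2.28), all 5 of MRE11A, RAD50 and NBN (−1.83), all 5 of BLM and WRN (−1.65), all 10 of the base excision and single-strand break genes (−1.35), 1 of the 3 of ATM and ATR (−0.87) and 4 of the 5 ERCC introns. These medians were not tested against each other. Within a gene the changes varied: the 5 FANCA introns ranged from −2.25 to −1.25 and the 5 FANCI introns from −2.52 to −1.59. The exception among the 61 was intron E020 of ERCC6L2 (chr9:98735371-98740342, plus strand), with 20, 13 and 23 counts with DMSO and 19 and 26 with OSMI-2, and a change of 0.10 (SE 0.45). Across the 61 introns the change had a Pearson correlation of 0.027 with log10 intron width and a Spearman correlation of 0.052 with width, given as a description, since introns share genes and libraries.

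**Figure D2:**
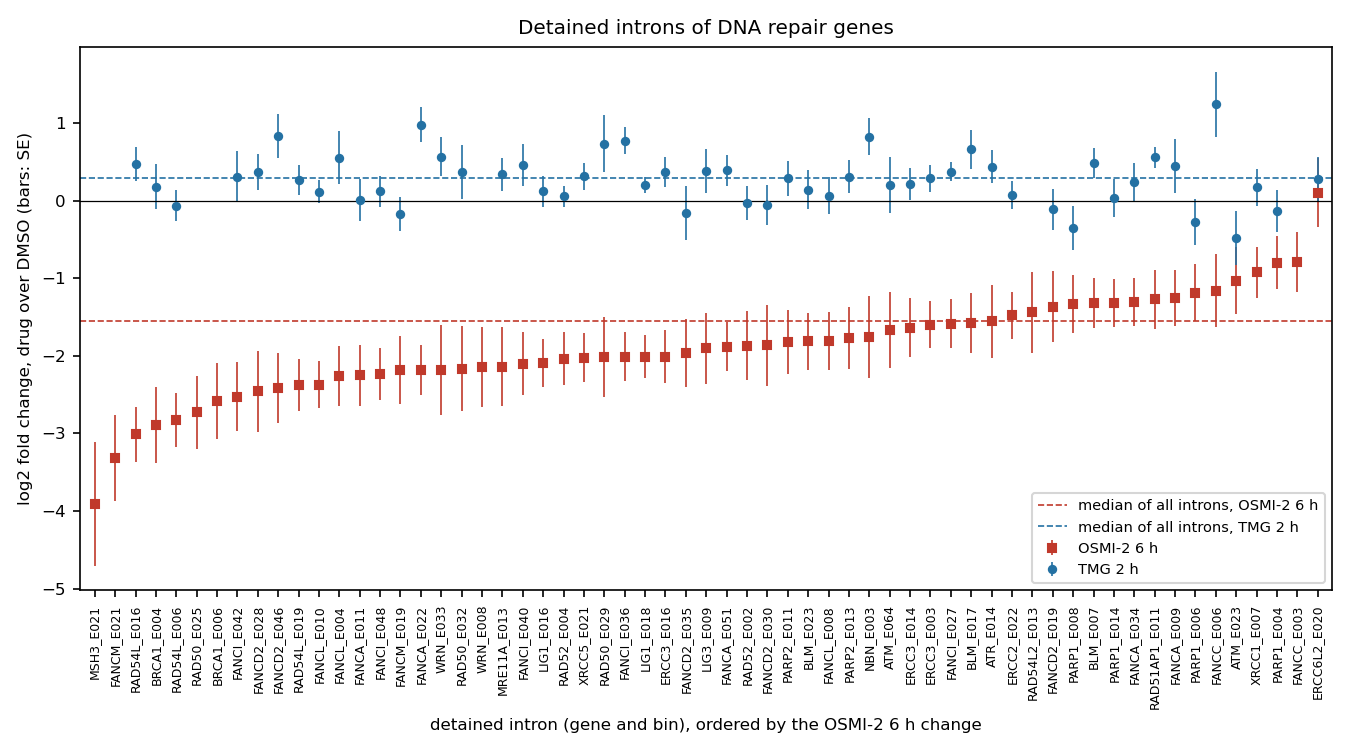
Log2 fold change of each member intron with its SE, for OSMI-2 6 h (squares, 61 introns) and TMG 2 h (circles, those of the 61 that were also tested with TMG), ordered by the OSMI-2 change. The dashed lines are the medians over all detained introns, −1.55 and 0.29. Of the OSMI-2 values, all but ERCC6L2 E020 lie below 0.

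The intron falls were larger than the changes of the genes for most members, and ATM was an exception. For this, limma tested the log2 ratio of intron to gene where an intron averaged 10 counts or more, with a pseudocount of 1 added to both counts. At 6 h with OSMI-2, 54 of 60 member introns were lower relative to their gene and none was higher (89.2% called over all, 89.0% lower and 0.217% higher, with medians of −1.68 for members and −1.63 for all). Without DMSO library a, 53 were called, against 86.6% of all introns tested. The 6 that did not pass were both ATM introns (E023 at 0.56, E064 at −0.03), RAD51AP1 E011 (−0.32), ERCC6L2 E020 (−0.12), FANCC E003 (−0.53) and FANCD2 E019 (−0.58); they were listed after their values were seen. In ATM the introns fell together with the gene: E023 (chr11:108143580-108150217, plus strand) changed by −1.03 and E064 (chr11:108225602-108235808, plus strand) by −1.67, beside −1.56 for the gene. ATM's intron share was 3.14%, 4.62% and 4.46% with DMSO and 5.36% and 3.97% with OSMI-2, and the groups overlapped. In the authors' deposited table, whose test compares the use of each bin between treated and DMSO libraries, 49 of the 62 member introns had an adjusted p under 0.05 in this comparison, all lower, against 80.5% of all detained introns.

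At 2 h with OSMI-2, no member intron passed the test. None of 38 member introns tested was called by edgeR or by DESeq2, 2 had an unadjusted p under 0.05, and 0.129% of all detained introns were called by edgeR. The smallest p was that of ERCC3 E016, a helicase intron of the transcription factor TFIIH, at −0.83 (SE 0.37, adjusted p = 0.9996 in edgeR). Its counts were 27, 71 and 16 with DMSO and 40, 43 and 24 with OSMI-2, which overlap. Relative to the gene, none of 39 was called by limma, 1 had an unadjusted p under 0.05, and 0.0643% of all were called. Many member introns held too few counts for a test at this time: 24 of 62 did not pass the filter on low counts, and BRCA1 E004 had 7 to 9 counts in each DMSO library.

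With TMG at 2 h the introns took a higher share of their genes. The members' share was 0.966%, 1.14% and 1.08% with DMSO and 1.31%, 1.39% and 1.18% with TMG, and the groups did not overlap. Of 55 member introns tested, 5 were higher and none lower by edgeR. Over all detained introns 9.81% were called, 9.69% higher and 0.123% lower. The median change of the members was 0.28, and that of all introns 0.29. DESeq2 called 3. The 5 were FANCA E022 (0.98, SE 0.22), FANCD2 E046 (0.83, SE 0.28), NBN E003 (0.83, SE 0.24), FANCI E036 (0.77, SE 0.18) and RAD51AP1 E011 (0.56, SE 0.14). FANCA E022 (chr16:89833646-89836115, minus strand) had 21, 38 and 43 counts with DMSO and 73, 67 and 55 with TMG. FANCI E036 (chr15:89838326-89843030, plus strand) had 52, 57 and 72 with DMSO and 97, 108 and 96 with TMG. NBN E003 had 20, 24 and 20 with DMSO and 38, 35 and 37 with TMG, and RAD51AP1 E011 (chr12:4662314-4665518, plus strand) had 96, 138 and 109 with DMSO and 164, 162 and 161 with TMG. In each of these the TMG libraries lay above every DMSO library. Without TMG library b, none of the 5 passed.

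FANCA and FANCI are members of the core complex and of the clamp that it ubiquitinates with FANCD2, NBN is the regulatory subunit of the end-holding complex, and RAD51AP1 promotes strand exchange. Relative to their genes, none of the 55 introns passed at 2 h by limma with the variance trend on the mean log ratio, 7 had an unadjusted p under 0.05, and 0.124% of all were called. With the trend on the mean intron count, an alternative added after the data were seen, 5 were called, all higher. The share over all introns under that alternative is not given here. The authors' deposited table had an adjusted p under 0.05 for 2 of 55, against 3.77% of all detained introns. The members' share at 6 h was 1.11%, 1.71% and 1.33% with DMSO and 1.46%, 1.76% and 1.59% with TMG, and the groups overlapped. None of 60 introns was called by edgeR or by DESeq2, 6 had an unadjusted p under 0.05, and 0.19% of all were called, 0.166% higher and 0.0237% lower. The smallest adjusted p was 0.056, at ERCC3 E016 (0.89, SE 0.22), with 57, 83 and 61 counts with DMSO and 156, 125 and 81 with TMG. Without DMSO library b of the 6 h group, 7 member introns passed, all higher. The share over all introns in that fit is not given here, so the 7 cannot be set against it. Over all detained introns, library b had the highest share of these DMSO libraries, 1.85% against 1.29% and 1.46%. Relative to the gene, none of 60 was called by limma, 2 had an unadjusted p under 0.05, and 0.0957% of all were called.

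Of the gene counts, with detained introns left out, 0 to 2 members passed in each drug comparison with all libraries. At 2 h with OSMI-2, none of 53 genes tested was called by edgeR or by DESeq2, 3 had an unadjusted p under 0.05, and 0.0% of all genes were called. Those 3 were MSH6 (−0.48, SE 0.18), MSH3 (−0.42, SE 0.17) and BRCA1 (−0.39, SE 0.15), with an adjusted p of 0.9996 each in edgeR. BRCA1 was at 13.4, 16.0 and 12.8 CPM with DMSO and 10.5, 10.3 and 11.2 CPM with OSMI-2. The GC slope divided these 6 libraries across the treatments: DMSO libraries a and b and OSMI-2 library b had slopes of 0.83 to 0.90, and the others 1.09 to 1.15. With this division as a term in the fit, again none was called.

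At 6 h with OSMI-2, 2 of 54 genes were called, both lower (4.94% called over all genes, 2.57% higher and 2.37% lower). ATM was at 61.1, 21.3 and 21.5 CPM in the DMSO libraries and at 7.63 and 9.63 CPM with OSMI-2. Both treated libraries lay below every DMSO library. The log2 fold change was −1.56 (SE 0.36, adjusted p = 0.0051, edgeR). Without DMSO library a, which had the highest value, it was −1.01 (adjusted p = 0.0031), and without OSMI-2 library a or b it was −1.41 or −1.72. Those fits leave 1 treated library, assumed to vary like the DMSO libraries, and the adjusted p was then 0.47 or 0.55. The other gene was MSH4, named after its values were seen, at −2.07 (SE 0.47, adjusted p = 0.0044), on a mean of 43.4 counts over 3 wide bins. With 1 treated library left it was at −2.0 or −2.16 (adjusted p = 0.38 or 0.56). ATR, the sister kinase, was at −0.43 (SE 0.36), with 31.0 CPM in DMSO library a against 9.09 and 10.5 CPM in the others, and at 0.20 (SE 0.15) without that library. RAD52 was at −1.12 (SE 0.38, adjusted p = 0.064). The Ku genes were at −0.08 (XRCC5) and −0.22 (XRCC6), and without library a at 0.35 and −0.15. The MRE11A, RAD50 and NBN genes were at −0.33, 0.02 and −0.03, and without library a at 0.26, 0.45 and 0.37, of which RAD50 passed. PARP1, at 0.48 (SE 0.37), ERCC1, at 0.56 (SE 0.30), and XRCC1, at 0.70 (SE 0.30, adjusted p = 0.13), did not pass. For XRCC1 both OSMI-2 libraries lay above every DMSO library in CPM, and for PARP1 and ERCC1 the groups overlapped in CPM and not after TMM scaling.

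**Figure D3:**
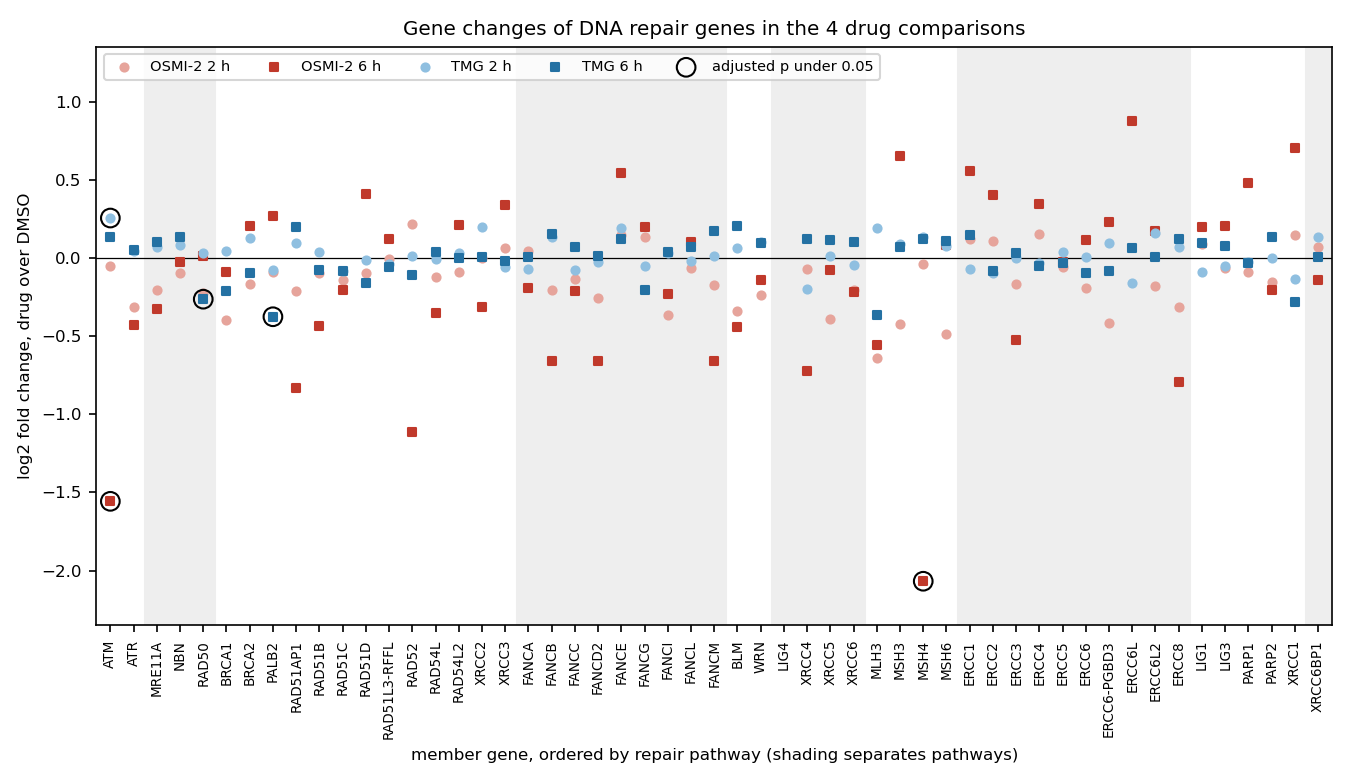
Log2 fold change of tested member genes in the 4 drug comparisons, ordered by pathway, with a ring where the adjusted p was under 0.05. ATM is ringed at −1.56 (OSMI-2 6 h) and 0.26 (TMG 2 h), MSH4 at −2.07, PALB2 at −0.38 and RAD50 at −0.26 (TMG 6 h).

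Without DMSO library a, more genes passed at 6 h with OSMI-2. Then 19 member genes were called, 14 higher and 5 lower, but 42.4% of all genes were called as well. The higher ones included PALB2 (0.81), BRCA2 (0.85), RAD50 (0.45), PARP1 (0.53), XRCC1 (0.56), ERCC1 (0.42) and BRCA1 (0.37). The 5 lower ones were ATM (−1.01), MSH4 (−1.74), RAD52 (−0.68), ERCC3 (−0.48) and RAD54L (−0.40). PALB2 was at 17.7, 6.63 and 5.87 CPM in the DMSO libraries and at 8.41 and 9.35 CPM with OSMI-2, so that of the DMSO libraries only a lay above both treated ones. BRCA1 changed sign with this library. The scaling also bears on these values: the median over all genes at 6 h with OSMI-2 was 0.15, and it was −0.09 with scaling factors from genes alone and 0.30 with median-of-ratios factors, while ATM and MSH4 were lower and past the threshold under each.

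Between the DMSO times of the OSMI-2 experiment, 7 of 53 genes were called (18.5% called over all genes, 4.59% higher and 14.0% lower). ATM rose by 2.14 (SE 0.32, adjusted p = 7.5e-05, edgeR), from 4.29, 6.79 and 4.14 CPM at 2 h to 61.1, 21.3 and 21.5 CPM at 6 h. RAD52 (1.08), FANCM (1.04), BRCA2 (0.99) and MSH4 (1.80, named after its values were seen) were also higher. MSH6 (−0.83) and XRCC5 (−0.79) were lower. Without library a at 6 h, ATM was higher by 1.68 (adjusted p = 0.00035), BRCA2 was at 0.43 and did not pass, and 14 members were called against 37.2% of all genes. In the TMG experiment ATM was at 46.0 to 50.2 CPM with DMSO at 2 h and 51.8 to 71.8 CPM at 6 h.

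**Figure D4:**
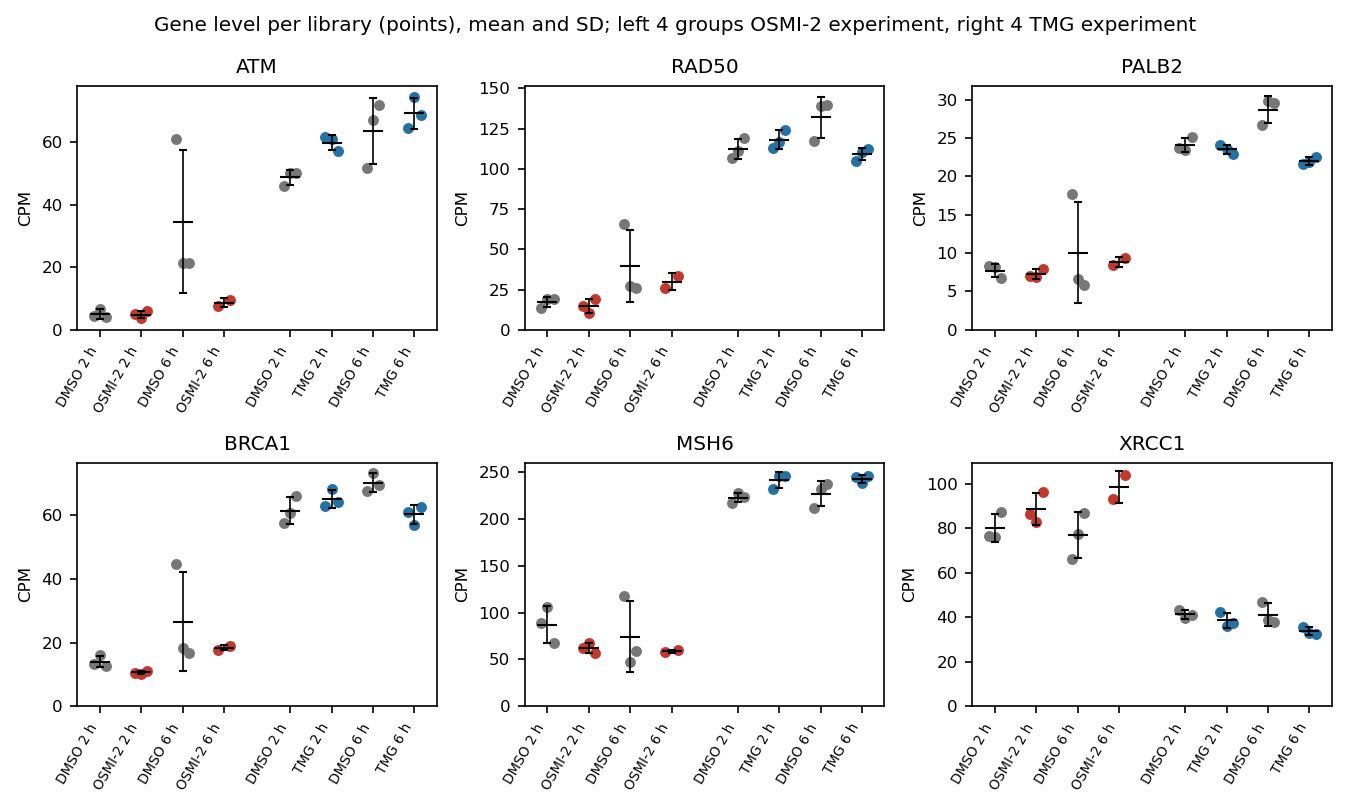
CPM of ATM, RAD50, PALB2, BRCA1, MSH6 and XRCC1 in each library, with the mean and SD of each group. In the OSMI-2 experiment the DMSO 6 h library a stands above the others for the first 5 genes, for example at 61.1 CPM against 21.3 and 21.5 CPM for ATM. In the TMG experiment the DMSO 6 h libraries were at 51.8, 67.1 and 71.8 CPM for ATM.

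With TMG the gene changes were small, and so were their errors. At 2 h, 1 of 54 genes was called (7.91% called over all genes, 1.25% higher and 6.67% lower): ATM was higher, at 46.0, 50.2 and 50.2 CPM with DMSO and 61.5, 60.9 and 57.2 CPM with TMG. Every TMG library lay above every DMSO library. The log2 fold change was 0.26 (SE 0.05, adjusted p = 0.0051, edgeR), and it passed without any single library of the comparison. It did not pass in a fit of all libraries (0.30), which takes its spread from the OSMI-2 experiment too. DESeq2 called 2 members, and its share over all genes is not given here. ATR was at 0.04 (SE 0.05), and the members ranged from −0.20 to 0.26. At 6 h, ATM was at 0.13 (SE 0.09, adjusted p = 0.39), and its groups overlapped.

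At 6 h with TMG, 2 of 55 genes were called, both lower (6.03% called over all genes, 1.19% higher and 4.84% lower). PALB2, the bridge between BRCA1 and BRCA2, was at 26.7, 29.9 and 29.5 CPM with DMSO and 21.6, 21.9 and 22.5 CPM with TMG. Its log2 fold change was −0.38 (SE 0.07, adjusted p = 0.0084), and without TMG library b the adjusted p was 0.057. RAD50 was at 117, 139 and 140.0 CPM with DMSO and 105, 110.4 and 113 CPM with TMG, a change of −0.26 (SE 0.06, adjusted p = 0.025). RAD50 did not pass in 5 of the 6 fits that left out a library. In both genes the TMG libraries lay below every DMSO library. BRCA1 was at −0.21 (SE 0.07, adjusted p = 0.063) and BLM at 0.20 (SE 0.06, adjusted p = 0.066). DESeq2 called 5 members, 1 higher and 4 lower, and its share over all genes is not given here. In the OSMI-2 experiment at 6 h, PALB2 was at 0.27 (SE 0.36) and RAD50 at 0.02 (SE 0.32).

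The difference between the drugs was tested as the OSMI-2 effect minus the TMG effect, each against its own DMSO libraries. Each drug was given in its own experiment, so drug and experiment cannot be told apart in this test. At 2 h, none of 54 genes passed by edgeR (0.0% called over all genes, 4 members with an unadjusted p under 0.05, none by DESeq2) and none of 56 introns did (0.255% called over all, 0.0464% higher and 0.209% lower, 9 with an unadjusted p under 0.05, none by DESeq2). At 6 h, the OSMI-2 effect was lower than the TMG effect for 53 of 62 introns and higher for none. Over all introns 74.2% were called, 73.7% lower and 0.577% higher. Without DMSO library a of the OSMI-2 experiment, 36 were called, against 46.8% of all. Of the genes, 3 of 55 passed against 19.9% of all, 16.9% higher and 2.97% lower: ATM at −1.52 (SE 0.40, adjusted p = 0.022), MSH4 at −2.02 (SE 0.47, adjusted p = 0.016) and XRCC1, the scaffold of single-strand break repair, at 1.13 (SE 0.29, adjusted p = 0.019). Without library a, ATM was at −0.57 (adjusted p = 0.012) and XRCC1 at 1.40, and 39 members were called, 37 of them higher, against 75.0% of all genes. ATM did not pass with median-of-ratios factors (−1.22, adjusted p = 0.076), nor XRCC1 with factors from genes alone (0.87, adjusted p = 0.053). XRCC1 was at 66.4, 77.4 and 86.9 CPM with DMSO and 93.3 and 103.7 CPM with OSMI-2, and at 47.0, 38.6 and 37.7 CPM with DMSO and 35.7, 33.04 and 32.7 CPM with TMG.

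Repair genes were at very different levels in the control libraries of the experiments. In DMSO at 2 h, ATM was 9.85 times lower in the OSMI-2 experiment than in the TMG experiment (log2 difference −3.30), BRCA2 13.4 times (−3.75) and NBN 11.4 times lower (−3.51). The log2 difference was −2.13 for BRCA1 and −1.38 for MSH6, PARP1 differed by 0.05, and XRCC1 was higher by 0.95 and FANCE by 1.02. This order followed the GC content of the transcripts, taken from the longest GENCODE transcript (GRCh38) of each symbol, which was found for 55 of 56 members. Of these, 23 with under 42% GC had a median difference of −2.90, and 8 with at least 55% GC had a median of 0.64. Over the 50 members with a mean of at least 50 counts, the difference had a Pearson correlation of 0.88 and a Spearman correlation of 0.89 with GC content, and over all 10859 such genes 0.78 and 0.81. Genes share their libraries, so these are descriptions. The members' transcripts had a median GC content of 43.4% against 48.7% over all genes. The drug effects above were each taken within an experiment, but the GC slope varied within the experiments too. At 2 h in the TMG experiment it was −0.24, −0.25 and −0.28 with DMSO and −0.28, −0.34 and −0.35 with TMG. ATM, the member gene called in that comparison, had a transcript GC content of 39.1%. How far the slope bears on its change is not given here. Removal of the GC trend moved the count of called member genes, as given below.

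**Figure D5:**
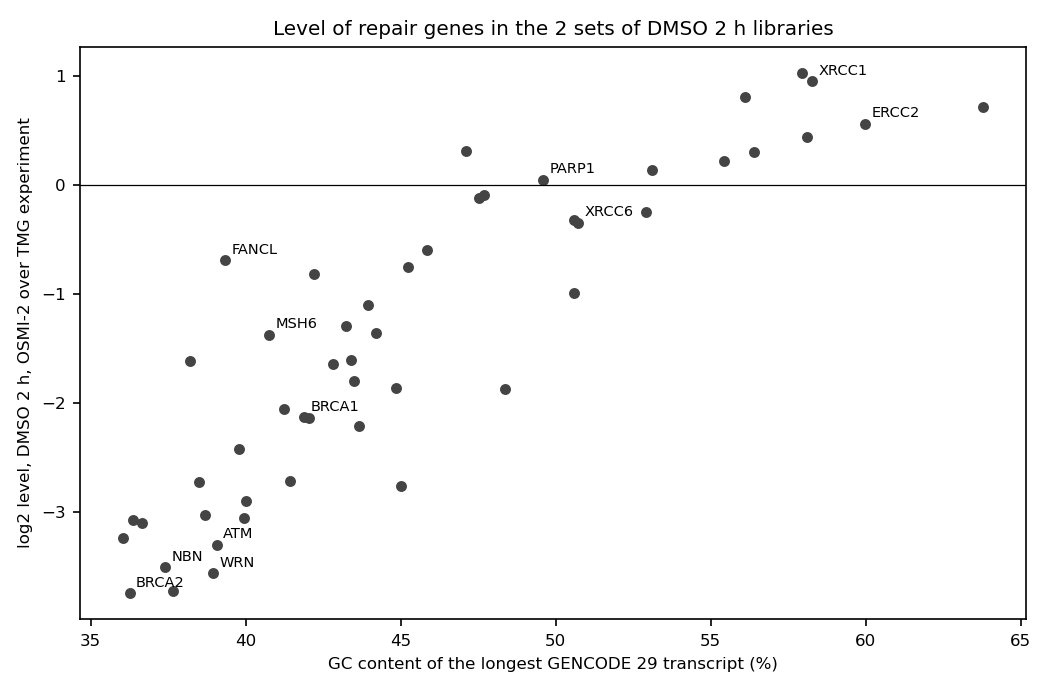
Log2 level of 50 member genes in DMSO at 2 h, OSMI-2 experiment over TMG experiment, against the GC content of the transcript. ATM, BRCA2, NBN and WRN sit at the low-GC end with differences between −3.75 and −3.30, and XRCC1 sits at 0.95.

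Repair genes outside the name rule were followed with a list of 114 further genes, of which 104 were in the tables. At 2 h with OSMI-2, none of 103 tested was called by edgeR. After 6 h with OSMI-2, 3 of 104 were higher: H2AFX, the histone variant marked at breaks (0.97), and the glycosylases MPG (0.91) and NTHL1 (0.99). APTX, which cleans abortive ligation ends, was lower (−1.15). These were at 0.75, 0.74, 0.79 and −1.14 without DMSO library a, all past the threshold, and 39 of the 104 were higher and 8 lower, against 42.4% of all genes called. At 2 h with TMG, 4 were higher and 4 lower. The higher ones were POLQ, PRKDC, RFC1 and RIF1, and the lower ones included H2AFX, MPG and SMUG1. After 6 h with TMG, 1 was higher (USP1, which deubiquitinates FANCD2, 0.21) and 12 were lower, among them SLX4 (−0.52), NEIL1 (−0.66) and RMI2 (−0.89). The shares called over all genes are those given above for each comparison.

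Outside the detained introns, the authors' deposited tables tested the use of exon bins. For OSMI-2 at 6 h, 54 of 1019 member bins had an adjusted p under 0.05, 38 higher and 16 lower in use, against 4.08% of all exon bins. LIG1 had 11 of them, FANCL 9, FANCA 8 and FANCI 7, which are genes with detained introns. In FANCL, the bins E016, E017 and E018, which the authors class as constitutive exons, had log2 fold changes of use of 0.96, 0.94 and 1.01 in the authors' deposited table. The test compares each bin with the rest of its gene, so the bins of a gene are not independent. In the authors' deposited tables none of the member exon bins passed at 2 h with OSMI-2 or at 6 h with TMG (0.00893% and 0.0565% of all), and at 2 h with TMG 1 of 983 did, in PARP1, against 0.14% of all.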

How the data were processed

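The authors deposited 1 table per drug and time with whole-number counts per bin and library, not normalized. Per the submitters' processing notes, reads were aligned with STAR to hg19; the counter, its version and its use of strand are not given in the sources used here, so overlapping genes and paralogs are uncertain. Per the file headers, the authors' p-values, adjusted p-values and log2 fold changes come from a test of bin usage; these are named as the authors' where printed. Gene values were summed here over all bins of a gene that are not detained introns. Genes and introns were tested with edgeR 4.0.16 (quasi-likelihood, filterByExpr, TMM factors over genes and introns together, Benjamini-Hochberg threshold 0.05), and log2 ratios of intron to gene with limma 3.58.1. DESeq2 1.42.0, other scalings, no filter, GC corrections and leaving out each library were alternatives. The scripts were tested on simulated data.

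Named are members past the threshold, up to 8 per direction and comparison, with a mean of at least 50 counts (10 for introns), or else the 3 smallest p, and a fixed set of core repair genes. The members and lists were chosen with earlier results of these data known. Libraries carry the letters of the count columns. OSMI-2 6 h had 2 count columns for 3 labelled samples; the remaining sample was not analysed here. Index-read files were not used. No intron sequence is printed. Values of some single genes are not reported here; they stay in the counts of members.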

Additional observations from a re-analysis of the deposited data

Results flagged for a closer look

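These values differ between the drugs at 6 h by the test of the difference itself (edgeR, adjusted p under 0.05), as the OSMI-2 effect minus the TMG effect on the log2 scale. Each drug was given in its own experiment, so drug and experiment cannot be told apart. Among genes the values were ATM at −1.52, MSH4 at −2.02 and XRCC1 at 1.13. Among detained introns they were BRCA1 E004 at −2.62, ERCC3 E016 at −2.73, FANCA E011 at −2.68, FANCA E022 at −2.72, FANCM E021 at −2.77, RAD54L E006 at −2.76, RAD54L E016 at −2.85 and WRN E033 at −2.52. FANCA E022 and ERCC3 E016 were lower with OSMI-2 at 6 h. With TMG at 6 h their changes were 0.70 and 0.89, neither past the threshold. Without DMSO library a of the OSMI-2 6 h group, ATM was at −0.57, MSH4 at −1.29 and XRCC1 at 1.40, all past the threshold. In the same order the introns were then at −2.08, −2.03, −2.27, −2.21, −1.91, −2.33, −2.43 and −1.65, all past the threshold.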

How the results depend on the processing

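Of 2727 alternatives of 195 named values, 2434 kept direction and side of the threshold, 132 changed sign with neither value past it, 83 lost the call, 71 gained it and 7 were reversed. The reversed values all left out DMSO library a of the OSMI-2 6 h group. Over the fits that left out a library, BRCA1 ranged from −0.26 to 0.37 with OSMI-2 at 6 h. In the difference between the drugs at 6 h, FANCI ranged from −0.36 to 0.73, ATR from −0.58 to 0.72, MRE11A from −0.48 to 0.72, XRCC5 from −0.23 to 0.79, BLM from −0.70 to 0.44 and WRN from −0.33 to 0.94.

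Counts of called member genes moved as follows. For these and the intron counts below, shares over all genes or introns are given above for some fits only. For OSMI-2 6 h (2), a fit of all libraries gave 16, removal of the GC trend 9, and leaving out a library 0 to 19. For TMG 2 h (1), TMM over genes gave 2, DESeq2 2, a fit of all libraries 0 and GC removal 3. For TMG 6 h (2), DESeq2 gave 5, a fit of all libraries 0, GC removal 6, and leaving out a library 0 to 6. For the difference at 2 h (0), leaving out a library gave 0 to 1. For the difference at 6 h (3), median-of-ratios gave 13, DESeq2 17, a fit of all libraries 9, GC removal 21, and leaving out a library 0 to 39. For DMSO 6 h against 2 h (7), a fit of all libraries gave 18, GC removal 15, and leaving out a library 2 to 14.

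Counts of called introns moved mostly with TMM over introns alone, which gave 9 for OSMI-2 6 h (60), 1 for TMG 2 h (5), 1 for TMG 6 h (0), 5 for the difference at 6 h (53) and 13 for DMSO 6 h against 2 h (56). For TMG 2 h, DESeq2 gave 3, a fit of all libraries 0, and leaving out a library 0 to 7. For TMG 6 h, median-of-ratios gave 1, and leaving out a library 0 to 7. Relative to the gene, a minimum mean of 50 counts gave 30 for OSMI-2 6 h (54) and 2 for TMG 2 h (0), where the authors' test gave 2 and the trend on the mean intron count 5. The minimum of 50 tests fewer introns; for the others the cause was not tested. The GC corrections and the count trend were chosen after seeing the data. No paired analysis was possible because the count columns carry letters and not the replicate numbers of the labels. Low counts limit the intron tests at 2 h: the member introns together held 958 to 1106 counts in the DMSO libraries of the OSMI-2 experiment.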
